A study of Mus musculus with 6 samples.

Results

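The genes examined here encode the CD3 chains of the T cell receptor complex (Cd3d, Cd3e, Cd3g and Cd247), the coreceptors (Cd8a, Cd8b1 and Cd4) and the kinase Lck. Their UTX sites were taken as all rows of the authors' deposited comparison that carry one of these 8 gene symbols. Of the 6739 listed sites, 12 were assigned to 7 of the 8 genes, and Cd3g had none. UTX, encoded by Kdm6a, is a histone demethylase that removes methyl groups from H3K27. It was profiled by CUT&Tag, in which an antibody against UTX guides a transposase that cuts and tags the DNA around the bound protein. The cells were progenitor CD8 T cells, sorted as Ly108+ CXCR6- from pancreatic lymph nodes of NOD mice. All mice carried the NY8.3 transgene, a T cell receptor for a pancreatic islet antigen. The groups were 3 WT samples and 3 samples from mice with UTX deleted in T cells (genotype UTX_knock in the labels, here UTX-deficient). The labels give neither the age or sex of the mice nor the promoter that drove the deletion, and they do not say whether each sample came from a separate animal.

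The receptor that recognises antigen has no signalling domain of its own. It is carried to the surface with the CD3 gamma, delta and epsilon chains and the zeta chain (Cd247), whose tails hold tyrosine motifs. CD8, made of an alpha and a beta chain, or CD4 binds the MHC molecule beside the receptor and brings in Lck, a Src family kinase that phosphorylates those motifs. CD8 T cells keep Cd8a and Cd8b1 on and Cd4 off.

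Group values alone were deposited, but whole reads per library could be recovered from them, and each library's reads are given below from the deepest to the shallowest of its group. Relative to a mean of 1, depth was 1.28, 0.916 and 0.792 in the WT libraries and 1.93, 1.07 and 0.00577 in the UTX-deficient libraries. The last library was close to empty and held 0 reads at all 12 sites. A single read of it is worth 173.2 normalized reads (reads divided by relative depth), so its 0 says little, and "both well-sequenced UTX-deficient libraries" below means the other 2. Since the table lists only sites with a false discovery rate (FDR) under 0.05, a gene without a row may still hold UTX below that threshold or without a difference between genotypes.

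Sequence was available at the sites that lie on a listed transcription start. The window before the upstream start of Lck lay entirely inside a site, and 208 bases before the start of Cd3e did. The window before the downstream start of Lck, which no site covered, is shown beside them because the Lck site with the opposite direction lies near it. All are RefSeq sequences of GRCm38.p6, the assembly of mm10, read 5′ to 3′ on the minus strand and ending at the base before the start. They span chr4:129573642-129573891, chr9:45009612-45009819 and chr4:129558373-129558622. Capitals mark matches on either strand to core letters of T cell factors, namely AGGAAG for ETS proteins, TGTGGT for RUNX proteins, CTTTGA for TCF and LEF proteins, AGATAA for GATA proteins and CAGGTG for E-box proteins.
Lck upstream start: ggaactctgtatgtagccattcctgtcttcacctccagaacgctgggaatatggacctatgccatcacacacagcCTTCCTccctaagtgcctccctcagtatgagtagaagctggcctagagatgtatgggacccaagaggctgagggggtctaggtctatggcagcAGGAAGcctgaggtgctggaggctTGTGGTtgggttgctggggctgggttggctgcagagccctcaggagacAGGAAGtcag
Cd3e start: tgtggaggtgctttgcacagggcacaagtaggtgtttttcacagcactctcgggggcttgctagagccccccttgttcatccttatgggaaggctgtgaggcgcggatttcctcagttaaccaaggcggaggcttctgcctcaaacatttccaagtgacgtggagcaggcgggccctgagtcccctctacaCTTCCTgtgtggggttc
Lck downstream start: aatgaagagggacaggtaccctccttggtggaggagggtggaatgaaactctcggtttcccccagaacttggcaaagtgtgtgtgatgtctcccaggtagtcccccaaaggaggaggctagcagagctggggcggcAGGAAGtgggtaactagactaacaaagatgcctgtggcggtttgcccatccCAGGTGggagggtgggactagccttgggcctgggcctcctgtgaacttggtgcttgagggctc

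No matches overlapped. The upstream Lck window held 3 ETS matches and 1 RUNX match. Of 32536 windows of 250 bases before RefSeq starts, 29.6% held the ETS letters and 14% the RUNX letters at least once. The share of windows with 3 ETS matches was not computed. The Cd3e stretch held 1 ETS match, as did 25.6% of windows of its length. In the downstream Lck window there were 1 ETS and 1 E-box match, the latter found in 17.3% of windows. Such matches are letters in a window and were not tested as binding sites.

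UTX signal was lost at nearly every listed site of these genes in UTX-deficient cells. The authors' deposited table gives 11 of the 12 sites as higher in WT, beside 99.7% of all listed sites, and 1, inside Lck, was higher in UTX-deficient cells, beside 0.312%. The recovery allowed reads of the near-empty library only at sites higher in UTX-deficient cells and placed 212 there. The 0.312% therefore depends on that library. The Lck site held none of its reads. At the 11 sites the WT mean per library was 57, 59.7 and 47.5 normalized reads per site. It was 1.41 and 4.58 in both well-sequenced UTX-deficient libraries, which is 2.57% and 8.36% of the WT mean. At the other 6702 sites higher in WT the corresponding shares were 2.89% and 9.03%. Each WT library lay above each UTX-deficient library at all 11 sites, as at 99.7% of sites. The authors' log2 fold, negative where WT is higher, had a median of -3.63 over the 11 sites in their deposited table, against -3.51 over all sites higher in WT. The folds of the 11 sites ran from -5.66 to -2.54, inside the range of all sites higher in WT (-6.36 to -0.97). Of the 8 genes, 4 had 2 or more sites higher in WT, beside 4.05% of protein-coding genes.

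**Figure D1:**
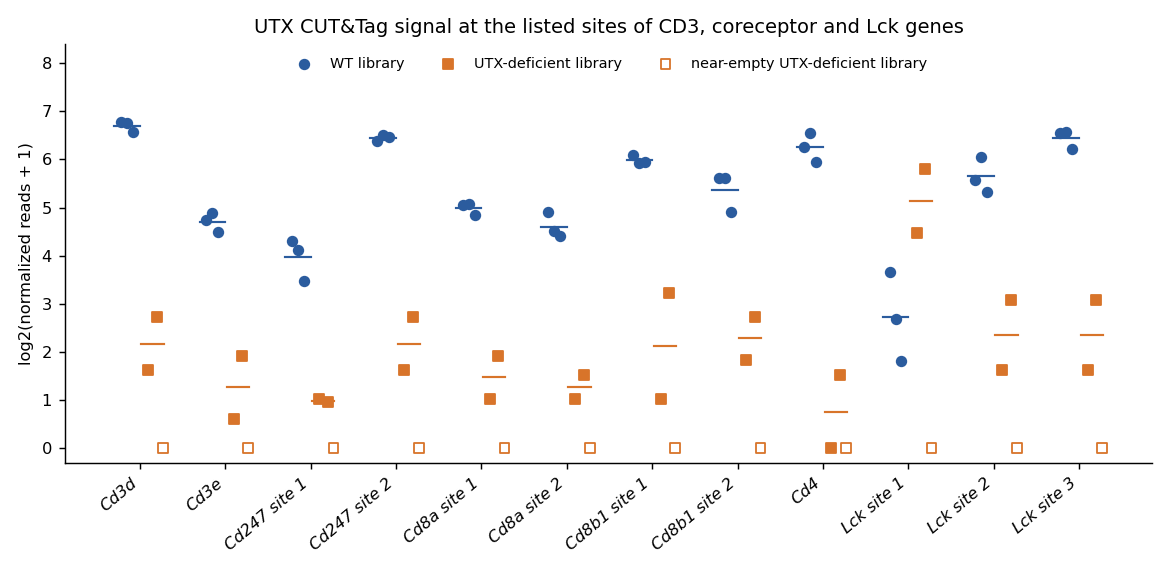
UTX CUT&Tag signal at each listed site of the 7 genes, as log2(normalized reads + 1), with 1 point per library (circles WT, filled squares both well-sequenced UTX-deficient libraries, open squares the near-empty library) and bars at the mean of the filled points. The WT points lie above the UTX-deficient points at all sites but Lck site 1, where the filled squares lie above the WT points; sites of a gene are numbered by position on the chromosome.

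Among the CD3 chains, Cd3d, which encodes CD3 delta, had the strongest site of the set. It lay inside the gene near its 3′ end (chr9:44986382-44986782), 470 bp from that end and 4796 bp downstream of the listed start. It held 139, 99 and 74 reads in WT against 4, 6 and 0 without UTX. All WT libraries were high and close together, at 103 ± 8.65 normalized reads (SD, n = 3). Pooled over libraries and divided by depth, WT held 31.5 times the reads of UTX-deficient cells (95% interval 16.9 to 66.3, exact binomial, covering counting error only). A T cell enhancer is known at the 3′ side of Cd3d, and whether this site coincides with it was not tested. In the authors' deposited table the log2 fold was -4.70 (FDR 5.78e-23), and 6.04% of sites higher in WT fell further.

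Cd3e, which encodes CD3 epsilon, had its site on the transcription start (chr9:45009419-45009819), with its middle 8 bp upstream. The reads were 33, 26 and 17 in WT against 1, 3 and 0 without UTX. This start site was weaker than the Cd3d site in every WT library, at 25.2 ± 3.50 normalized reads (SD, n = 3). Its log2 fold in the authors' deposited table was -3.34 (FDR 3.42e-05). Cd3g, which encodes CD3 gamma, had no listed site. Its listed start lies 1355 bp from that of Cd3d, the genes are read away from each other, and no listed site lay on either start. The site inside Cd3d and the one at Cd3e were 23037 bp apart.

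The zeta chain gene Cd247 carried a strong and a weak site, both far inside the gene body of 91202 bp. The strong site (chr1:165844622-165845022) lay 56141 bp downstream of the listed start. It held 106, 82 and 69 reads in WT against 4, 6 and 0 without UTX, the same UTX-deficient reads as at Cd3d. The WT libraries stood at 86.5 ± 3.34 normalized reads (SD, n = 3). The weak site (chr1:165816449-165816849), 28173 bp away, held 24, 15 and 8 reads in WT against 2, 1 and 0 without UTX. Only the strong site also overlapped another annotated gene, the predicted transcript Gm32999, and the nearest end of a protein-coding gene was that of Pou2f1. The authors' deposited table lists a log2 fold of -4.45 (FDR 2.18e-21) for the strong site and of -2.54 (FDR 0.0217) for the weak one. By the authors' fold the weak Cd247 site had the smallest fall of the 11, though not by the ratio of pooled reads (15.8), and 97.7% of sites higher in WT had a higher WT level.

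**Figure D2:**
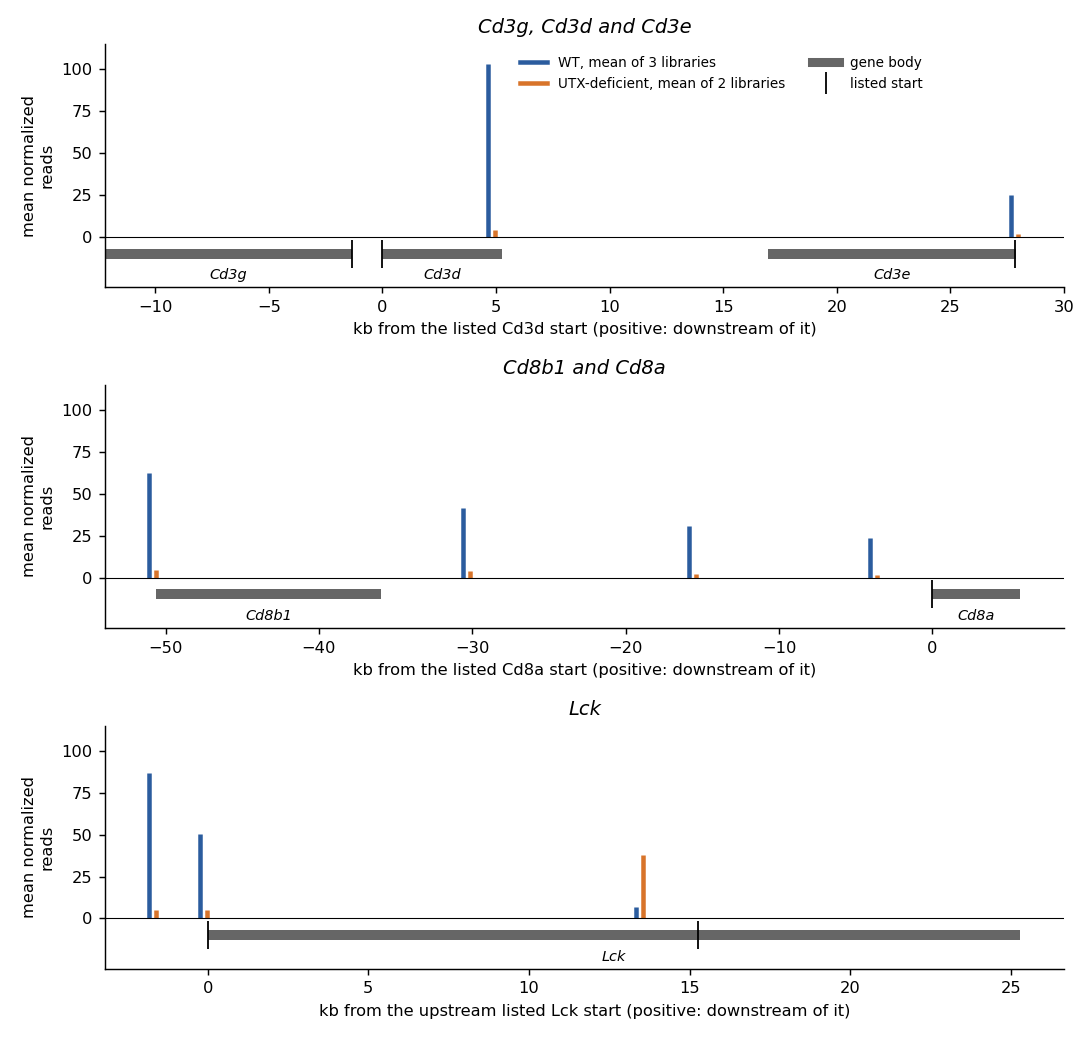
Mean normalized reads of the sites (blue WT, 3 libraries; orange both well-sequenced UTX-deficient libraries) against distance in kb from a listed start, with gene bodies as grey bars and listed starts as black ticks. The Cd3d site reaches 103 in WT near the 3′ end of the gene, the Cd8 sites are spread from -50.88 to -3.85 kb relative to the Cd8a start, and the Lck site 13.44 kb downstream of the upstream start is the one with more UTX-deficient signal (38.1 against 6.57).

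The CD8 genes lie head to tail on chromosome 6, and 4 sites were spread across them, none inside either gene body. The interval between the genes, 35934 bp long, is known for enhancers that switch CD8 on at different stages of T cell life, and 3 of the 4 sites lay in it. Which enhancer a site falls on, if any, was not tested. The strongest was the site beside Cd8b1, the CD8 beta gene (chr6:71322349-71322749), ending 39 bp before that gene and overlapping the noncoding gene Gm38828. It held 86, 55 and 48 reads in WT against 2, 9 and 0 without UTX.

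The second site given to Cd8b1 (chr6:71342839-71343239) lay 5347 bp beyond the gene, on the side of Cd8a. It held 61, 44 and 23 reads in WT against 5, 6 and 0 without UTX. Pooled and divided by depth, WT held 11.7 times the reads of UTX-deficient cells (95% interval 6.34 to 24.1, exact binomial), the smallest such ratio among the 11 sites. Cd8a, the CD8 alpha gene, was given the sites with their middles 15652 and 3852 bp upstream of its start (chr6:71357575-71357975 and chr6:71369375-71369775). The farther one held 41, 30 and 22 reads in WT against 2, 3 and 0 without UTX. The nearer one held 37, 20 and 16 reads in WT against 2, 2 and 0 without UTX.

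From Cd8b1 to Cd8a the WT means fell in order of position, at 62.6 ± 4.02, 41.6 ± 10.9, 30.9 ± 2.70 and 23.7 ± 4.65 normalized reads (SD, n = 3). Within that order the farther Cd8a site overlapped in range with both its neighbours, while the site beside Cd8b1 lay above all others in every library. Compared within each WT library, the farther Cd8a site lay below the second Cd8b1 site and above the nearer Cd8a site. Every WT library was above every UTX-deficient library at each of the 4 sites. As log2 folds, the authors' deposited table lists -3.82, -3.20, -3.63 and -3.33 for them, with FDRs from 1.75e-15 to 3.46e-05. No listed site lay on the Cd8a start itself.

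Cd4, the coreceptor gene that is silent in CD8 T cells, had 1 site, and it showed the largest fall of the set. It lay inside the gene (chr6:124885903-124886303), 2144 bp from the end at which transcription starts. WT libraries held 97, 85 and 48 reads, and UTX-deficient libraries held 0, 2 and 0. In WT it stood at 76.4 ± 16.1 normalized reads (SD, n = 3), a level exceeded by 10.1% of sites higher in WT. Pooled and divided by depth, WT held 116 times the reads of UTX-deficient cells, with a wide 95% interval of 31.8 to 964 (exact binomial) because it rests on 2 reads. In the authors' deposited table the log2 fold was -5.66 (FDR 1.4e-14), the ninth in rank, and 0.119% of sites higher in WT fell further. The first intron of Cd4 holds the silencer through which RUNX proteins keep the gene off in the CD8 lineage, and whether this site lies on it was not tested. The nearest listed site of another gene, at Mlf2, lay 44617 bp away, with 101, 81 and 81 reads in WT against 4, 8 and 0 without UTX. Among 6 other genes typical of CD4 and regulatory T cells, Izumo1r and Il2ra had a listed site, and Zbtb7b, Foxp3, Cd40lg and Ctla4 had none. A part of such cells in the result was not tested. Runx3, the RUNX gene of that lineage, had 5 listed sites, the strongest with 172, 137 and 86 reads in WT against 4, 7 and 0 without UTX.

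Lck had 3 sites, and they did not move together. RefSeq lists an upstream and a downstream start, 15269 bp apart, in keeping with the known distal promoter of Lck, which serves mature T cells, and the proximal promoter, most active in thymocytes. The site at the upstream start (chr4:129573586-129573986) covers the sequence shown above and has its middle 145 bp before the start. It held 60, 60 and 31 reads in WT against 4, 8 and 0 without UTX. The outer site (chr4:129575174-129575574), 1733 bp before that start and outside the gene, held 118, 86 and 58 reads in WT against again 4, 8 and 0 without UTX. Both fell: the authors' deposited table lists a log2 fold of -3.33 (FDR 9.99e-10) at the start and of -4.20 (FDR 1.75e-19) before it. The nearest end of a protein-coding gene at the outer site was that of Fam167b.

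The internal Lck site (chr4:129560006-129560406) went the other way. It lay 13435 bp downstream of the upstream start and at -1834 bp relative to the downstream start. The reads were 15, 5 and 2 in WT against 41, 59 and 0 without UTX. Normalized, that is 11.7, 5.46 and 2.52 in WT and 21.2 and 55.0 in both well-sequenced UTX-deficient libraries, each of which lay above each WT library. This held at 0.0594% of sites, 4 in all. Pooled and divided by depth, UTX-deficient cells held 4.51 times the reads of WT (95% interval 2.82 to 7.51, exact binomial). In the authors' deposited table the log2 fold was 2.27 (FDR 0.0182). The proximal Lck promoter is in wide use to drive Cre in T cells, and the labels do not name the promoter used here. If it was this one, reads from promoter sequence in a transgene and reads from Lck itself cannot be told apart in these values. Libraries of the same genotype also differed widely at this site, a spread that the interval on the pooled ratio leaves out.

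Set against the site at the upstream start in the same library, the log2 ratio of internal to upstream signal was -1.91, -3.36 and -3.51 in WT. It was 2.85 and 2.73 in both well-sequenced UTX-deficient libraries, and the near-empty one, with no read at either site, gives no ratio. These ratios are a description, since both sites were listed for opposite differences in the same libraries. Scaling between libraries cancels in this ratio apart from the pseudocount of 1. The neighbouring listed sites, at Hdac1 on one side and Dcdc2b on the other, fell in UTX-deficient cells, by the authors' deposited table with a log2 fold of -3.17 at Hdac1 and of -2.94 at Dcdc2b. Hdac1, a histone deacetylase gene, held 28, 16 and 13 reads in WT against 2, 0 and 0 without UTX at its site 17027 bp from the internal Lck site.

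**Figure D3:**
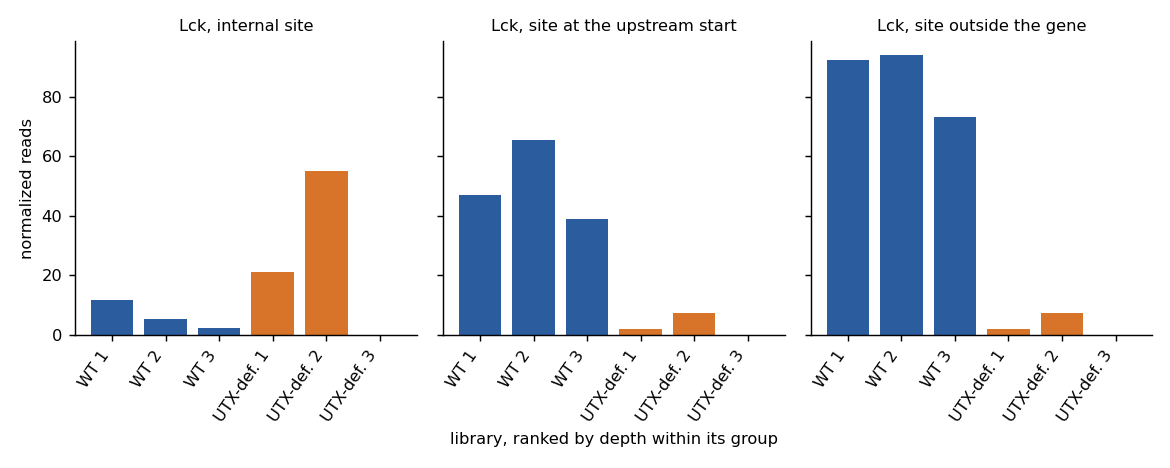
Normalized reads at the 3 Lck sites in each library (blue WT, orange UTX-deficient, ranked by depth within the group). At the internal site both well-sequenced UTX-deficient libraries (21.2 and 55.0) stand above the WT libraries (2.52 to 11.7), while at the other sites the WT libraries stand at 39.1 to 93.9 and the UTX-deficient libraries at 7.46 or less.

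The recovered reads were also tested across the table with limma on log2(normalized reads + 1), with Benjamini-Hochberg adjustment over 6734 sites. Because the listed sites had been selected for a difference in the same libraries, this gives the size and error of each difference and is no independent test. With all 6 libraries the 11 sites were called lower in UTX-deficient cells, as were 99.7% of sites, with log2 differences from -5.75 (SE 0.84) at Cd4 to -3.31 (SE 0.42) at the weak Cd247 site. Without the near-empty library they were again called, beside 99.7% of sites, with differences from -5.49 to -2.98. The internal Lck site was not called with all 6 libraries, at 0.70 (SE 0.74, limma adjusted p = 0.342), a setting in which 0.297% of sites were called higher. Without the near-empty library it was called higher in UTX-deficient cells, at 2.41 (SE 0.59, limma adjusted p = 0.000799), beside 0.0743% of sites. It was also called with all 6 libraries at a pseudocount of 5 (0.86, limma adjusted p = 0.00212), where the share of all sites called was not computed. Without the second UTX-deficient library by depth, the difference at this site turned to -0.49 (limma adjusted p = 0.585). That setting leaves the near-empty library, with 0 reads, and 1 other, which at 21.2 normalized reads lay above each WT library (2.52 to 11.7).

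Ordered by WT level, the 11 sites ran from Cd3d at 103 to the weak Cd247 site at 15.1 normalized reads. Behind Cd3d came the strong Cd247 site and the outer Lck site, both at 86.5, and then Cd4 at 76.4. The Cd3d site lay above the strong Cd247 site in every library, and the nearer Cd8a site lay above the weak Cd247 site in every library, with ranges that did not overlap. Every other pair of neighbours in the order overlapped in range. Compared within each library, 3 of these pairs also kept their order in every library. They were the outer Lck site over Cd4, the second Cd8b1 site over the farther Cd8a site, and the latter over Cd3e. The remaining pairs did not. Of the 11 sites, 4 lay within 1 kb of an end of the assigned gene, at Cd3d, Cd3e, Cd8b1 and Lck, and 6 overlapped it. Of 6648 placed sites higher in WT, 53.2% lay within 1 kb and 76.4% overlapped.

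**Figure D4:**
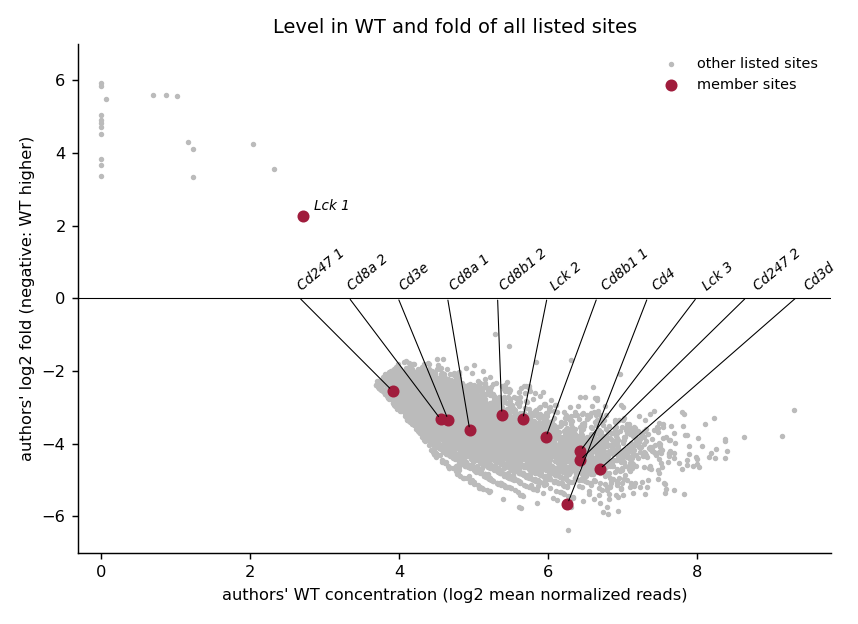
Authors' log2 fold (negative where WT is higher) against the authors' WT concentration (log2 mean normalized reads) for all listed sites but 1 of log2 fold above 8 (grey) and the 12 member sites (red, numbered by position within a gene). The 11 sites higher in WT run from 3.91 to 6.69 in concentration inside the main cloud, with Cd4 at its lower edge (-5.66), and the internal Lck site stands at 2.27.

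By the pair of group concentrations in the authors' deposited table, the sites of other genes nearest to the outer Lck site were at Sp2 and Ifnar1, within 0.0219 log2 units. Those nearest to Cd4 were at Ssbp4 and Nr1d2, within 0.0060, and those nearest to Cd3d at Iffo2 and Pip5k1c, within 0.0623. Nearest to Cd247 were Tada3 and Uap1, to Cd3e Fbxo27 and Nemf, to Cd8a Pmm1 and Golm1, and to Cd8b1 Coq10b and Fam76a. The likeness was measured over 2 group values only, and for Cd4, Ssbp4 and Nr1d2 the UTX-deficient value is the lowest the table gives, 0, so that match rests on WT alone.

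Genes whose products act on the receptor complex, the coreceptors or Lck also carried sites. Of 31 such partner genes, 23 (74.2%) had a listed site higher in WT and none had one higher in UTX-deficient cells, beside 22.1% of protein-coding genes and 7 of the 8 members (87.5%). The 31 include 3 receptor constant region genes that are not annotated as protein-coding. Within 10 kb of a gene end 16 of the 31 had a site, and within 1 kb 11 did. The share of all protein-coding genes was not computed at these limits, and 22.1% holds without a limit. The list and the members were chosen with earlier results of these data known. Over their 37 sites the median log2 fold in the authors' deposited table was -3.45. Csk, the kinase that restrains Lck, had 3 sites, with folds from -4.31 to -3.88. Ptprc, which encodes the phosphatase CD45 that activates Lck, had 2, with folds of -3.67 and -1.85. Ptpn22, a phosphatase acting on Lck, had 2, the strongest with 129, 121 and 82 reads in WT against 10, 11 and 0 without UTX.

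Sites were also found at adhesion and costimulatory receptors. Cd28, the main costimulatory receptor gene, had 4 sites, one of them 4 bp from a gene end. Cd2, an adhesion receptor gene, had 3, and Cd6, a surface regulator of receptor signalling, had 2, which the authors' deposited table lists at -4.07 and -2.22. Ptpn6, Nck2 and Ubash3b had 2 sites each. Zap70, the kinase that docks on the phosphorylated CD3 and zeta chains, had a single site with 27, 24 and 18 reads in WT against 0, 2 and 0 without UTX. Sh2d2a, an adaptor that binds Lck, had a site 44 bp from a gene end with 122, 102 and 65 reads in WT against 2, 10 and 0 without UTX. The receptor constant region genes Trac, Trbc1 and Trbc2, as well as Ptcra, Trat1, Unc119, Ubash3a and Cbl, had none.

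None of 12 B cell genes, among them the receptor chain genes Cd79a and Cd79b and the kinase genes Lyn and Syk, had a listed site. None of 8 myeloid and dendritic markers had one, and Tyrobp was the single one of 6 natural killer and innate markers, 19286 bp from the gene. Apart from Runx3, the 6 genes listed as CD8 T cell markers are members already counted above. This list includes Cd3d, Cd3e and Cd3g, which do not set CD8 T cells apart from other T cells. Of these 6, 5 had a site, Cd3g being the exception. Of 7 CD4 and regulatory T cell markers, 3 (42.9%) had one, Cd4 among them. The natural killer and innate share was 16.7%, and that of all protein-coding genes 22.1%. A listed site is not a measure of expression, and the lists were chosen with earlier results of these data known. These counts therefore do not test the labelled cell type.

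**Figure D5:**
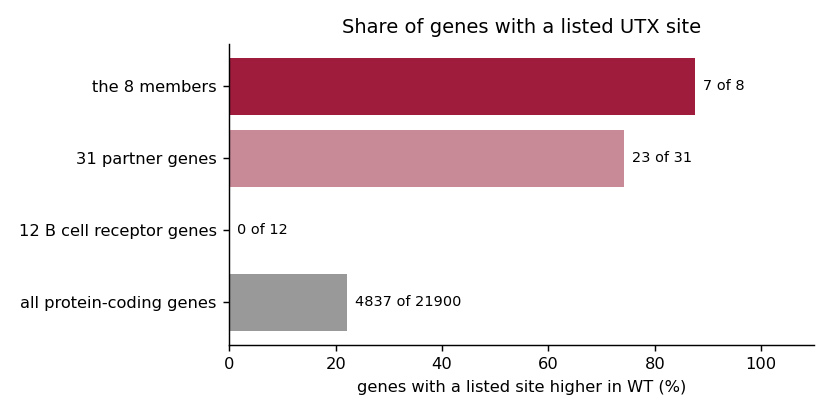
Share of genes with a listed site higher in WT, in percent, for the 8 members (7 genes), 31 partner genes (23), 12 B cell genes (0) and all 21900 protein-coding genes (4837). The 12 are labelled B cell receptor genes in the figure but also include other B cell genes, and the exact binomial 95% interval of their share reaches 26.5%. The members and partners stand at 87.5% and 74.2%, against 22.1% overall.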

How the data were processed

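Group membership of the 6 CUT&Tag samples came from the genotype label. The submitters' processing notes name DiffBind, MACS2, Bowtie2, cutadapt, Picard, SAMtools and FastQC and the build mm10. Versions, settings and whether peaks were called on single or pooled samples are not given there. Per the file headers, the authors' deposited table gives log2 concentrations (log2 mean normalized reads, lowest value 0) per group and over all samples, and a log2 fold per site of 401 bp. The p-value and the FDR per site are the authors' own, read at 0.05. IgG control libraries were not used here.

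A group's total of normalized reads, the antilog of its concentration times 3, must equal whole reads of 3 libraries weighted by the worth of a read in each. Where the UTX-deficient concentration stood at its lowest value of 0 (at Cd4, the weak Cd247 site and the nearer Cd8a site among others), the total was instead taken as that over all samples minus that of WT. The worth of a read was found from recurring differences between sums, and each sum was then solved within rounding. Reads of the near-empty library were allowed only at sites higher in UTX-deficient cells and set to 0 elsewhere. A single solution was found at 6734 of 6739 sites and at all 12 member sites. The 6 recovered depths summed to 6.000000, the value for sizes divided by their mean, which the search does not use, although the search was revised once before this held. Of 1000 sums shifted at random, 1.7% could be solved with WT weights and 0% with UTX-deficient weights. Tested on a simulated table of 6739 sites, recovery solved 6666 sites and 0 wrongly. Libraries are ranked by depth and carry no replicate number. P-values measure only the spread between these samples, which may be technical.

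Recovered reads divided by depth were tested with limma 3.58.1 in R 4.3.3 (trend, pseudocount 1, Benjamini-Hochberg over all solved sites). On simulated reads of 6739 sites without a near-empty library, it called 100% of 200 sites lowered by 3.5 on the log2 scale and 0.0918% of the others. A planned permutation test of the Lck ratio is not used, since its sites were listed for opposite differences in these libraries. Ratios of pooled reads carry exact binomial (Clopper-Pearson) 95% intervals. Because reads are pooled over libraries, these cover counting error only and leave out the spread between libraries. Duplicates of a molecule may be among the reads, which would make the intervals too narrow. Gene ends come from a RefSeq annotation of GRCm38.p6, which matched 6677 sites by symbol, and starts and promoter sequences from RefSeq for 6 of the 8 genes (all but Cd8b1 and Cd4). The annotation used holds no exons, so exons and introns could not be told apart.

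All rows of the member genes are named, with neighbours within 50 kb, the 2 sites nearest in group concentrations, and partner genes with 2 or more sites, of which 1 is not reported here. Runx3, Zap70, Sh2d2a and the partner genes without a site were added to the text with their values known. The members and lists were chosen with earlier results of these data known. Alternatives were another FDR threshold, distance limits, pseudocounts, scaling, a filter on low values and leaving out each library.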

Additional observations from a re-analysis of the deposited data

How the results depend on the processing

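The 11 member sites higher in WT numbered 10 at FDR 0.01 and at 0.001, where the weak Cd247 site is lost. By limma they numbered 11 under each pseudocount, under the other scaling and with any library left out (11 to 11). With a filter at a mean of 10 normalized reads, the weak Cd247 site was not tested, and the other 10 were called. Their direction held in each of these settings. The share of all listed sites kept at FDR 0.01 or 0.001 was not computed. By limma, 99.7% of all sites were called higher in WT with all 6 libraries and without the near-empty one. The share called in either direction was not computed under the other limma settings. Beside 99.7%, an unchanged 11 says nothing particular about these genes. The call of the internal Lck site depended on the setting. At FDR 0.01 the number of member sites higher in UTX-deficient cells was 0. By limma it was 0 with all libraries, 1 with a pseudocount of 5 (0.86), and 0 to 1 with a library left out, the 1 being without the near-empty library (2.41). That site's difference turned to -0.49 without the second UTX-deficient library by depth (limma adjusted p = 0.585), which leaves the near-empty library and 1 other. The other library, at 21.2 normalized reads, still lay above each WT library (2.52 to 11.7). Genes with a site fell from 7 of 8 to 6 within 10 kb of a gene end, losing Cd247, and to 4 within 1 kb (Cd3d, Cd3e, Cd8b1 and Lck). The share of all protein-coding genes at these distance limits was not computed. By the nearest gene end in place of the authors' assignment there were 7. No paired analysis was possible because the deposited table holds group values and the recovered libraries carry no replicate number. Depth limits the low sites most, since 1 to 3 reads in a library set the residual signal there.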

Other observations

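The gates of the sort can be set beside the sites. Slamf6, which encodes Ly108, had 1 listed site, 4058 bp from a gene end, with 63, 48 and 45 reads in WT against 4, 6 and 0 without UTX. Cxcr6, which encodes the chemokine receptor the sorted cells lacked on their surface, had 2, one of them 8 bp from a gene end, and the authors' deposited table lists them at log2 folds of -4.09 and -3.49. The stronger Cxcr6 site held 53, 62 and 40 reads in WT against 3, 4 and 0 without UTX, which is above the reads of both Cd8a sites in every WT library. Tcf7, which encodes a factor typical of progenitor T cells, had 4 sites, the strongest with 216, 200 and 114 reads in WT against 13, 22 and 0 without UTX.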
